A study of Homo sapiens with 6 samples.

Results

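Circadian clock genes were compared between cells before and after exposure to Osi (osimertinib, an EGFR tyrosine kinase inhibitor). The RNA-sequencing values of 10 clock genes were taken from a table of 27216 rows: CLOCK, ARNTL (also called BMAL1), NPAS2, PER1, PER2, PER3, CRY1, CRY2, NR1D1 and NR1D2. The members were chosen by gene symbol, and all 10 were found. The cells were H1975, an EGFR-mutant human lung adenocarcinoma line labelled wild type, in 3 parental samples (Osi for 0 h) and 3 adapted samples (Osi at 1000 nM for 72 h per the labels, apoptotic cells washed away). The study's text names the same dose in other assays, and its list of compounds a lower one. The columns of the parental samples are headed DMSO, and the series design names DMSO as the other arm to Osi, whereas the sample labels give Osi for 0 h, so how long those cells were held in DMSO, if at all, is not clear from the sources used here. The labels do not say whether the 3 samples of a group came from separate cultures, so the p-values measure the spread between these samples, which may be technical. The labels also describe an RNase R digestion, which removes linear RNA, before library construction, whereas the study's methods name total RNA. Values are log2(FPKM + 1), where FPKM is a level scaled to transcript length and library size. The added 1 makes log2 differences of genes at low FPKM smaller than FPKM ratios would give. The name FPKM was inferred from the values. The depth of each sample is unknown. Back on the linear scale a sample added up to 375342 to 387753 FPKM, and each error below is a spread over samples or comes from the fit.

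The mammalian clock is a feedback loop of transcription. CLOCK, or its paralog NPAS2, pairs with ARNTL and binds E-box sequences in DNA, switching on the PER and CRY genes, whose proteins return to the nucleus and repress that pair. In a second arm the same pair switches on NR1D1 and NR1D2, the nuclear receptors REV-ERB alpha and beta, which repress ARNTL and NPAS2. Most cell types run this loop, and in culture it can be reset by serum, by glucocorticoids and by signals that act through ERK or cAMP. Each group here was sampled at a single time, and the hour of harvest is not given, so a changed level and a changed phase of the cycle cannot be told apart. If the parental cells were harvested at 0 h, Osi goes together with 72 h of further culture, and these cannot be told apart. Equally, in bulk RNA a fall may come from fewer expressing cells or from less RNA per cell, which cannot be told apart.

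Adapted cells held much less NR1D1, PER1 and NPAS2 RNA than parental cells, while CLOCK, ARNTL and NR1D2 did not pass the test. NR1D1 was 4.80-fold lower, PER1 4.20-fold lower and NPAS2 2.14-fold lower in mean FPKM, and PER2 was 1.46-fold lower. In the other direction, CRY2 was 1.48-fold higher and PER3, at a very low level, 2.16-fold higher.

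Adapted replicate 1 stood somewhat apart. Across rows it correlated at 0.991 with each of the other adapted samples (0.996 between those) and at 0.972 to 0.973 with parental samples (0.963 to 0.964 for the others). Without it 8370 rows of the whole table were called in place of 7202, and the same clock genes passed the threshold, with differences of -1.90 for NR1D1, -1.63 for PER1, -1.06 for NPAS2, -0.31 for PER2 and 0.50 for CRY2.

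A filter on low values, a mean of 1 or more on the log2(FPKM + 1) scale across all samples, left 9 of the 10 genes, which were tested with limma together with the rest of the table (12656 rows). PER3 fell short of this filter. Past an adjusted p of 0.05, 4 of the 9 fell (NR1D1, PER1, NPAS2 and PER2) and 1 rose (CRY2). Of all tested rows, 26.2% fell and 30.7% rose, 56.9% together, so 5 of 9 called is near the share of the whole table. Of the other tested rows, 161 (1.27%) had a lower log2 difference than NR1D1, 236 (1.86%) than PER1 and 701 (5.54%) than NPAS2. Counting both directions, 2.38% had a larger absolute difference than NR1D1, 3.44% than PER1 and 11.2% than NPAS2. The median over the 9 clock genes was -0.039, beside 0.028 over all tested rows. The groups did not overlap in 6 of the 9 genes, against 66.3% of all tested rows.

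**Figure D1:**
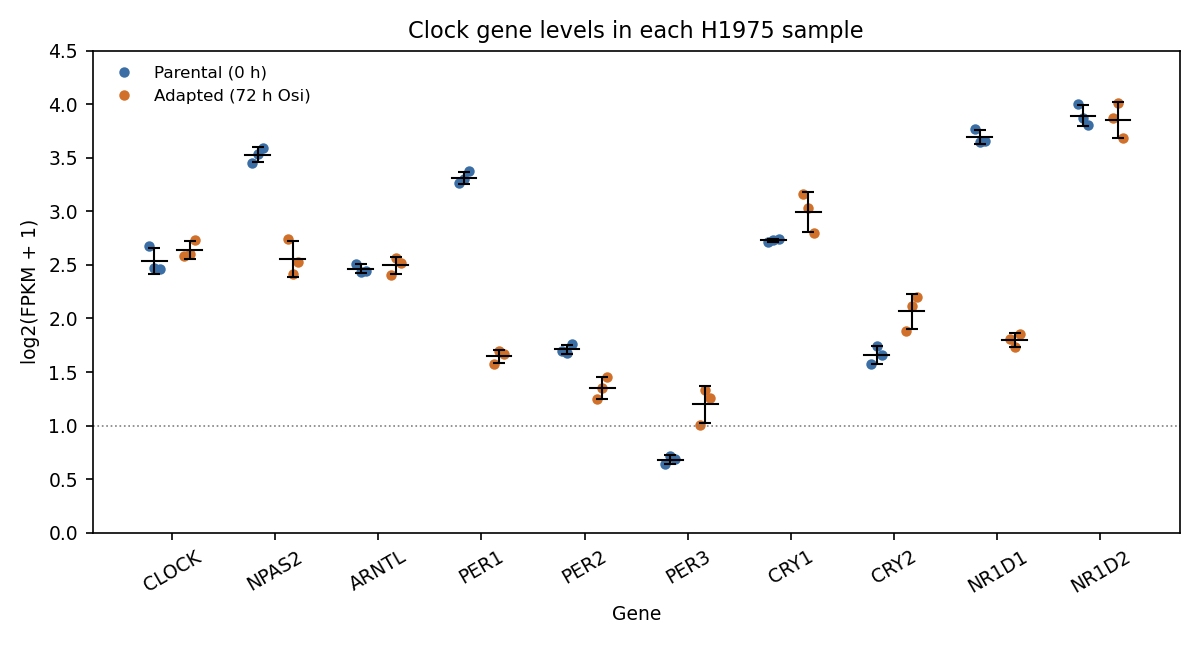
Level of each clock gene as log2(FPKM + 1) in the 3 parental samples (blue) and the 3 adapted samples (orange), with the mean (wide bar) and SD (capped bar); the dotted line is the filter at 1. PER1 and NR1D1 drop from above 3 to below 2 in every adapted sample, whereas the CLOCK, ARNTL and NR1D2 points of the 2 groups overlap.

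Because CLOCK, NPAS2 and ARNTL act through E-boxes, the stretches around E-box letters near the starts of the clock genes are shown. All 10 genes matched the RefSeq promoter table (GRCh38.p14), with 15 windows running from 250 bases before to 50 after a start. Both strands were searched for the E-box CACGTG, which reads the same on either strand, and for its variant CACGTT, the E-prime box. PER1 and NR1D2 hold the first, and CLOCK, PER2, CRY1, CRY2 and NR1D1 the second, so 7 of the 10 genes hold a match. Over all genes of the table, 8.77% hold the E-box, 6.44% the E-prime box and 14.5% either form. A match was held by 4 of the 5 clock genes with 1 window (12% of all such genes) and by 3 of the 5 with 2 windows (21.6%). Capitals mark the match, AACGTG being CACGTT on the opposite strand, and each line is the sense strand of the gene, 5′ to 3′.
PER1: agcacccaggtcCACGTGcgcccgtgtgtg
NR1D2, outer: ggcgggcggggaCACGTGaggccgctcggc
NR1D2, inner: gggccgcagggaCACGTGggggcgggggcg
NR1D1: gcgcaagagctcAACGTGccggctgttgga
PER2: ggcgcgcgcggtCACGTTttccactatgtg
CRY1: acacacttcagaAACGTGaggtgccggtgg
CRY2: acacatggtaggAACGTGagggggcgggcc
CLOCK: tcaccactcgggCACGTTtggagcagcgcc

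The PER1 stretch is chr17:8152560-8152589 (minus strand), with the E-box at position -173 relative to the start site. The NR1D2 pair lies at chr3:23945954-23945983 and chr3:23946004-23946033 (plus strand), at positions -155 and -105 of the second of its listed starts. NR1D1 has its match at chr17:40100740-40100769 (minus strand, position -168), PER2 at chr2:238288790-238288819 (minus, position -197), CRY1 at chr12:107093621-107093650 (minus, position -89), CRY2 at chr11:45847275-45847304 (plus, position -188 of the second listed start) and CLOCK at chr4:55546102-55546131 (minus, position -187 of the second listed start). In GENCODE v29 the CRY1 stretch lies wholly within an exon of CRY1 and the CRY2 stretch partly within one of CRY2, and the others touch no exon. The windows of ARNTL, NPAS2 and PER3 held neither form. A match describes the letters and no more. Whether any of these matches was bound was not tested, and the changes of the genes that hold them are given below. The other motifs searched, on both strands, were rarer. The D-box TTATGTAA was found in PER3 and NR1D2, the core of the ROR element TAGGTCA in ARNTL and CRY2, and the cAMP response element TGACGTCA in no clock gene window. Over all genes these were found in 1.13%, 2.29% and 2.25%.

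Among the activators, NPAS2 changed, whereas its paralog CLOCK and their shared partner ARNTL did not pass the threshold. NPAS2 values were 3.45, 3.54 and 3.59 in parental and 2.74, 2.41 and 2.52 in adapted samples. Every adapted sample was below every parental one, with adapted replicate 1 the least reduced. The difference was -0.97 on the log2(FPKM + 1) scale (standard error 0.10, limma, adjusted p = 1.78e-04). CLOCK stood at 2.67, 2.47 and 2.46 in parental and 2.58, 2.60 and 2.74 in adapted samples. These ranges overlap, since parental replicate 1 was above 2 of the adapted samples. The interval of the difference ran from -0.10 to 0.31 (95%, limma, adjusted p = 0.342). ARNTL, which pairs with either of them, was 2.51, 2.43 and 2.45 in parental and 2.41, 2.56 and 2.51 in adapted samples, again with overlap. Its difference lay between -0.14 and 0.21 (95%, limma, adjusted p = 0.737), so a change as large as that of NPAS2 is outside the interval of either gene.

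NPAS2 made up 68.7% ± 3.29 (SD, n = 3) of the summed FPKM of CLOCK and NPAS2 in parental cells and 48.3% ± 4.32 (SD, n = 3) in adapted cells. The sum itself went from 15.4 ± 0.191 to 10.2 ± 0.676 FPKM. The per-sample difference CLOCK minus NPAS2 moved by 1.07 on the log2(FPKM + 1) scale. ARNTL2, a paralog that can also pair with CLOCK, was far more abundant than ARNTL, with 26.8 ± 0.264 FPKM before and 15.4 ± 0.191 FPKM after adaptation. It fell by 0.76 on the log2(FPKM + 1) scale (limma, adjusted p = 3.49e-05), and the difference ARNTL minus ARNTL2 moved by 0.80.

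The PER genes encode the repressor proteins whose build-up and decay set the pace of the loop, and their 3 transcripts took different courses. PER1, which also responds acutely to growth factor, cAMP and glucocorticoid signals, read 3.26, 3.30 and 3.38 in parental and 1.58, 1.70 and 1.66 in adapted samples. The gap between the groups was many times the spread inside either. PER1 fell by 1.67 on the log2(FPKM + 1) scale (standard error 0.07, limma, adjusted p = 5.38e-06). PER2 read 1.69, 1.68 and 1.76 in parental and 1.25, 1.35 and 1.45 in adapted samples. All adapted values were lower, by a smaller step, and PER2 fell by 0.36 (standard error 0.09, limma, adjusted p = 0.0101). PER3, the member least needed for rhythm, stood at 0.64, 0.72 and 0.69 in parental and 1.004, 1.33 and 1.26 in adapted samples. It was higher in all 3 adapted samples. In the fit without a filter on low values, in which 36.6% of 23902 rows were called, the difference was 0.52 (standard error 0.10, limma, adjusted p = 0.00989).

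As a result the make-up of the PER pool differed. PER1 gave 75.7% ± 0.129 of the summed PER FPKM in parental cells and 42.9% ± 2.28 in adapted cells (SD, n = 3 each). PER2 went from 19.2% ± 0.400 to 31.2% ± 1.79, and PER3 from 5.11% ± 0.345 to 25.9% ± 2.75. The pool fell from 11.8 ± 0.497 to 4.99 ± 0.542 FPKM. Between paralogs, the within-sample difference PER1 minus PER2 moved by -1.31, PER1 minus PER3 by -2.18 and PER2 minus PER3 by -0.88 on the log2(FPKM + 1) scale. PER2 and PER3 stood at low FPKM, where the added 1 shrinks such moves.

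CRY1 and CRY2, the strongest repressors of the CLOCK and ARNTL pair, were both higher on average in adapted cells. CRY1 was 2.71, 2.73 and 2.74 in parental and 3.16, 3.04 and 2.80 in adapted samples. All adapted values were above the tight parental group, adapted replicate 3 by little. The difference of 0.27 (95% interval 0.03 to 0.50) missed the threshold (limma, adjusted p = 0.0527). It passed without adapted replicate 3 (0.37, adjusted p = 0.00795) and after rescaling to an equal sum per sample (adjusted p = 0.0428). CRY2 was 1.58, 1.74 and 1.66 in parental and 1.89, 2.11 and 2.20 in adapted samples. Again no sample of one group reached the other, with adapted replicate 1 the nearest. CRY2 rose by 0.41 (standard error 0.11, limma, adjusted p = 0.013), a call lost without parental replicate 1 (0.37, adjusted p = 0.0537). The CRY pool went from 7.80 ± 0.230 to 10.2 ± 0.597 FPKM (SD, n = 3 each).

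NR1D1 and NR1D2 encode receptors with similar DNA binding, and the first fell while the second did not pass the test. NR1D1 values were 3.77, 3.65 and 3.66 in parental and 1.81, 1.73 and 1.86 in adapted samples. Adapted replicates lay close together, nearly 2 log2 units under the parental ones. NR1D1 fell by 1.89 on the log2(FPKM + 1) scale (standard error 0.07, limma, adjusted p = 3.39e-06). NR1D2 values were 4.005, 3.87 and 3.81 in parental and 3.87, 4.01 and 3.68 in adapted samples. The highest and the lowest of the 6 were both adapted samples. Its difference lay between -0.27 and 0.19 (95%, limma, adjusted p = 0.756). NR1D1 accounted for 46.2% ± 0.911 of the summed FPKM of this pair in parental cells and 15.7% ± 2.41 in adapted cells, and NR1D1 minus NR1D2 moved by -1.85.

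**Figure D2:**
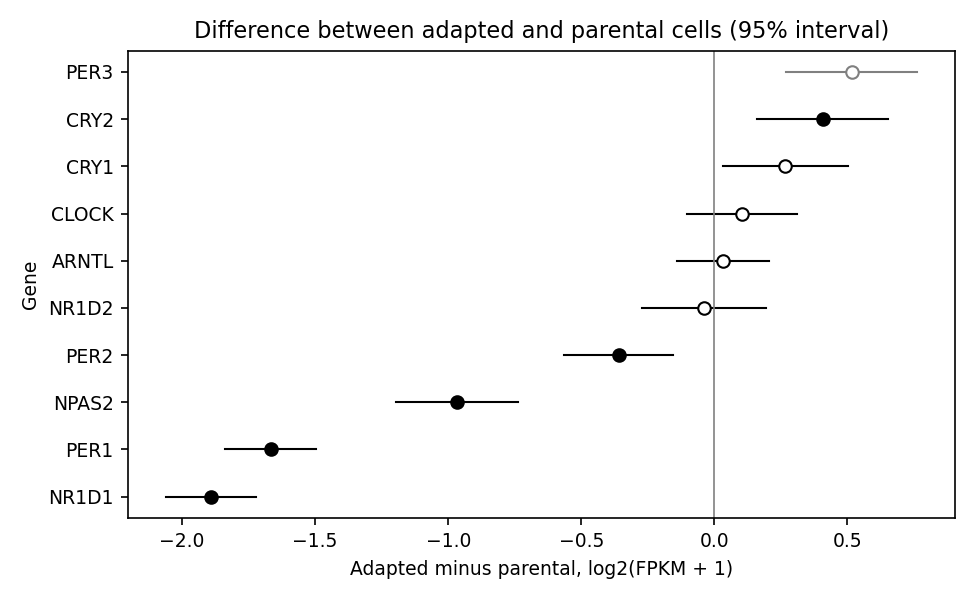
Difference between adapted and parental means on the log2(FPKM + 1) scale for the 10 clock genes, with the 95% interval from limma; filled points passed an adjusted p of 0.05, open points did not, and PER3 (grey) comes from the fit without a filter. NR1D1 and PER1 lie below -1.5, and the intervals of CLOCK, ARNTL and NR1D2 include 0.

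Whether paralogs differed in their response was tested on the within-sample differences of 7 pairs. In 6 of these (3 PER pairs, NR1D1 and NR1D2, CLOCK and NPAS2, ARNTL and ARNTL2) the values of the 2 groups did not overlap (exact two-sided permutation p = 0.1, which no arrangement of 3 and 3 samples can go below, and 0.117 adjusted over the 7 pairs). The exact test cannot pass 0.05 at this size, and since 66.3% of single tested rows did not overlap either, nothing particular to these pairs is read from their number. For CRY1 minus CRY2 the groups overlapped (1.14, 0.99 and 1.08 in parental, 1.27, 0.92 and 0.59 in adapted samples, exact permutation p = 0.6). Without adapted replicate 1 this pair did not overlap either.

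**Figure D3:**
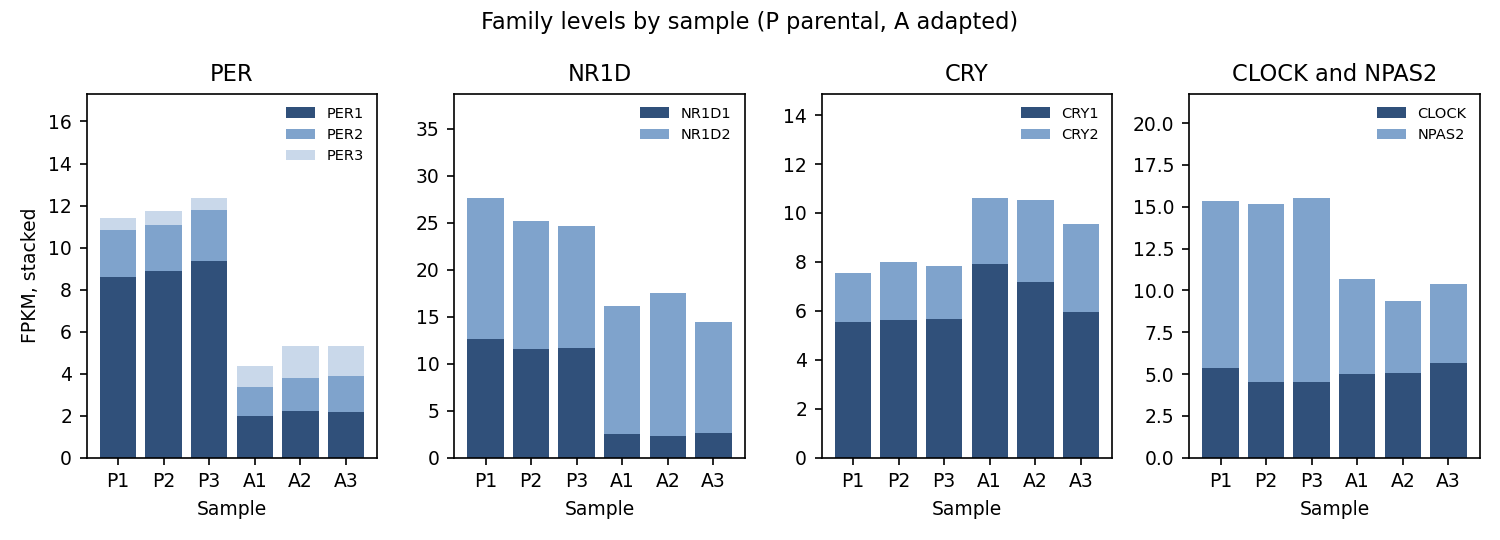
FPKM of the clock genes stacked by family in each sample (P1 to P3 parental, A1 to A3 adapted); FPKM is scaled to length, so that the heights of paralogs can be set side by side. The PER, NR1D and CLOCK and NPAS2 stacks are lower in every adapted sample and the CRY stack is higher, with PER1, NR1D1 and NPAS2 taking up the loss.

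Set side by side per length, the order of levels differed between the groups. In parental cells NR1D2 (13.9 ± 1.06 FPKM) was followed by NR1D1 (11.9 ± 0.591), NPAS2 (10.5 ± 0.551), PER1 (8.95 ± 0.390), CRY1 (5.63 ± 0.0609), CLOCK (4.81 ± 0.495), ARNTL (4.52 ± 0.159), PER2 (2.28 ± 0.102), CRY2 (2.17 ± 0.184) and PER3 (0.605 ± 0.0429; SD, n = 3 each). Sample ranges overlapped only between the neighbours CLOCK and ARNTL and between PER2 and CRY2. In adapted cells NR1D2 still led at 13.5 ± 1.66 FPKM. CRY1 came next at 7.02 ± 1.01, then CLOCK (5.24 ± 0.365), NPAS2 (4.92 ± 0.700) and ARNTL (4.64 ± 0.301), whose ranges overlapped from one neighbour to the next, then CRY2 (3.21 ± 0.464). NR1D1 had dropped to rank 7 at 2.48 ± 0.149 and PER1 to rank 8 at 2.13 ± 0.136, above PER2 (1.56 ± 0.177) and PER3 (1.30 ± 0.266), which overlapped.

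Some of these genes share exon sequence with neighbours on the opposite strand, and whether the counting used strand is not stated. The 3′ end of NR1D1 (chromosome 17, 40092787 to 40100725, minus strand, GENCODE v29 on GRCh38) overlaps the thyroid hormone receptor gene THRA over 263 exonic bases. THRA went the other way, from 2.26, 2.38 and 2.35 in parental to 3.19, 3.52 and 3.40 in adapted samples, a rise of 1.04 (limma, adjusted p = 1.24e-04). CLOCK shares 76 exonic bases with TMEM165, which rose by 0.68 (limma, adjusted p = 6.44e-04). PER3 shares 868 with UTS2, which is listed at 0 in all 6 samples. Further opposite-strand genes that share exons with CLOCK, NPAS2, PER2, PER3 and CRY1, and the miRNA gene MIR6883, which lies on the strand of PER1 and shares 78 bases with it, were not analysed here. AC129492.3, which shares 30 bases with PER1 on the same strand, is listed at 0. Reads in these stretches cannot be assigned to one gene without strand, and their part in the values was not tested.

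The wider pathway was described through 5 lists with 52 genes, of which 43 passed the filter. Of these, 10 rose and 19 fell (18 without BHLHE41, which passed the filter in parental cells only), beside 30.7% and 26.2% of all tested rows, and the counts of the single lists below are to be read against the same shares. BHLHE40 (DEC1), which competes with the CLOCK and ARNTL pair at E-boxes, had the lowest difference among the accessory loop factors. It went from 56.2 ± 1.01 to 17.1 ± 0.733 FPKM (SD, n = 3 each), a fall of 1.66 on the log2(FPKM + 1) scale (limma, adjusted p = 2.3e-06). NFIL3, a repressor of D-box genes, fell by 0.88 (adjusted p = 1.89e-04), and BHLHE41 (DEC2), the paralog of BHLHE40, stood at 1.32 ± 0.03 in parental and 0.72 ± 0.27 in adapted cells. BHLHE41 passed the filter through its parental level alone, so its difference is not used as support. Of the 6 members with a mean at or above the filter in both groups, 4 fell, the others being ARNTL2 and TIMELESS, and none rose (26.2% of all tested rows fell and 30.7% rose). Their median was -0.64. DBP, a D-box activator driven directly by the clock, was 2.48 ± 0.11 in parental and 2.29 ± 0.17 in adapted cells (adjusted p = 0.166), and its relative TEF was 2.04 ± 0.03 and 2.13 ± 0.24 (adjusted p = 0.54). TEF passed the threshold without adapted replicate 1 (0.23, adjusted p = 0.0173). The DBP difference of -0.19 ran from -0.28 to -0.11 with 1 sample left out, without a call. RORA, RORB, HLF and CIART did not pass the filter. HLF, a further D-box activator, stood at 0.81, 0.76 and 0.79 in parental and 0.16, 0.05 and 0.10 in adapted samples, without overlap. In the fit without a filter its difference was -0.68 (limma, adjusted p = 2.31e-04).

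Of 5 tested genes that the clock controls in many tissues, 3 fell and 1 rose, against 26.2% and 30.7% of all tested rows. NAMPT, the rate-limiting enzyme of NAD salvage, changed from 191 ± 6.27 to 67.4 ± 3.14 FPKM (SD, n = 3 each), a difference of -1.49 (limma, adjusted p = 4.73e-06). WEE1, a kinase that delays entry into mitosis, differed by -1.23 (adjusted p = 1.58e-05) and KLF10, a zinc finger factor induced by TGF-beta, by -0.71 (adjusted p = 2.21e-04). ALAS1, the first enzyme of heme synthesis, rose by 0.27 (adjusted p = 0.0318). That call was lost without parental replicate 1 (adjusted p = 0.101) or 2 (0.0855) and without adapted replicate 2 (0.0843) or 3 (0.0746). CDKN1A (p21) showed no call (-0.019, adjusted p = 0.938), and its adapted samples spread widely (SD 0.39). Without adapted replicate 1 its difference was 0.21 (adjusted p = 0.0175). GYS2, PCK1 and VIPR2, the liver and brain members of the list, were near 0.

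**Figure D4:**
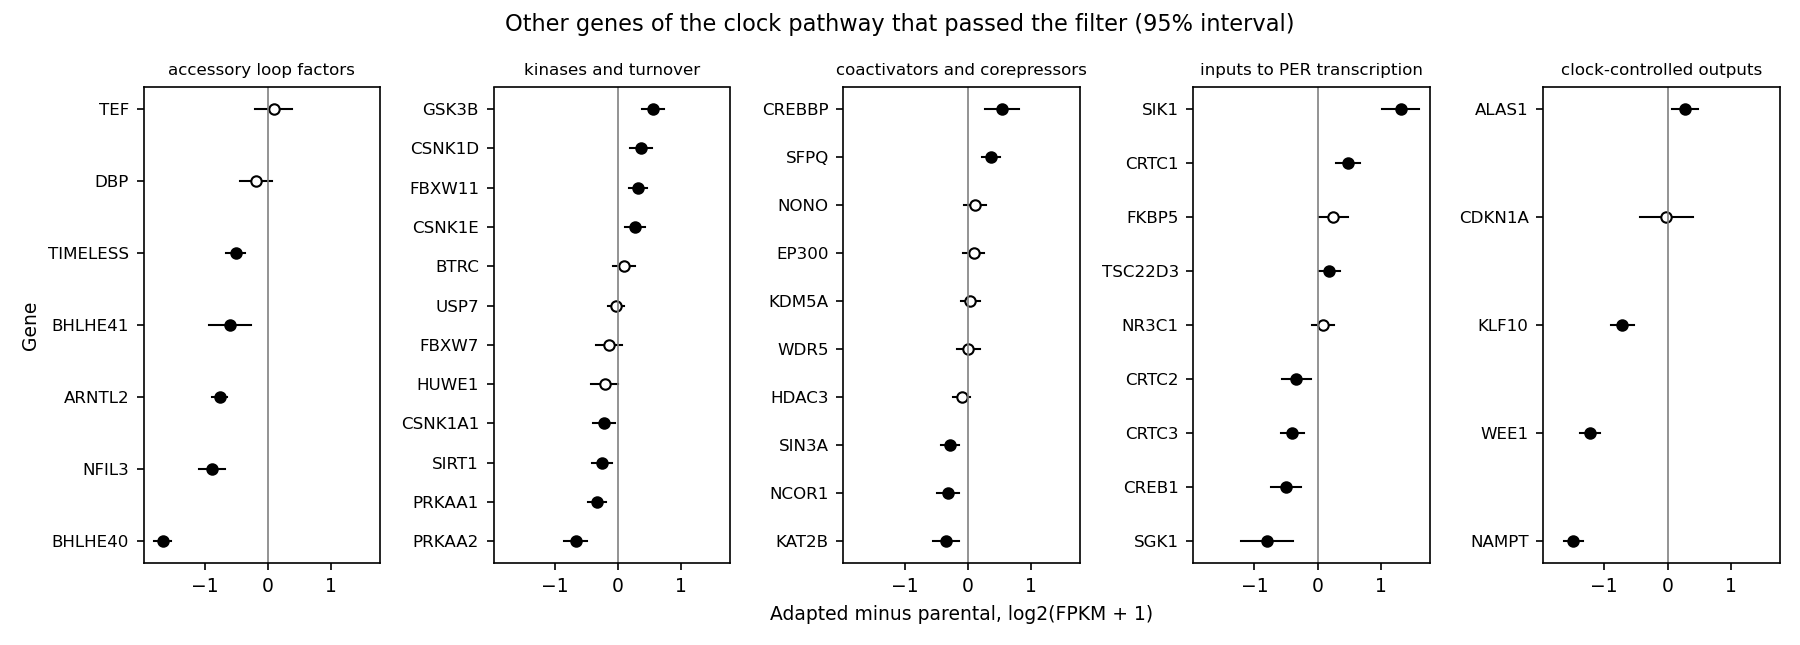
Difference between adapted and parental means on the log2(FPKM + 1) scale, with 95% intervals from limma, for the 43 other genes of the clock pathway that passed the filter, in 5 lists; filled points passed an adjusted p of 0.05. The accessory factors and outputs lie mostly left of 0 (4 of the 6 accessory factors with a mean of 1 or more in both groups and 3 of 5 outputs fell, beside 26.2% of all tested rows), and the other lists lie on both sides.

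Genes of the cAMP and glucocorticoid inputs to PER transcription showed calls in both directions. Of 9, 3 rose and 4 fell (30.7% and 26.2% of all tested rows). These are RNA levels, and the activity of the signals was not tested. SIK1, a kinase induced by cAMP that holds CRTC coactivators out of the nucleus, rose from 2.23 ± 0.287 to 7.09 ± 1.16 FPKM (SD, n = 3 each), by 1.32 on the log2(FPKM + 1) scale (limma, adjusted p = 1.3e-04). CREB1, which binds cAMP response elements, fell by 0.50 (adjusted p = 0.0044). Of its coactivators CRTC3 fell by 0.40 (adjusted p = 0.00409) and CRTC2 by 0.33 (adjusted p = 0.0243), whereas CRTC1 rose by 0.48 (adjusted p = 0.00171). The CRTC2 call was lost without parental replicate 1 (adjusted p = 0.0764) or 2 (0.0859). In the glucocorticoid arm, the receptor NR3C1 differed by 0.085 (adjusted p = 0.373) and its targets FKBP5 and TSC22D3 by 0.25 (adjusted p = 0.0561) and 0.19 (adjusted p = 0.0494), on either side of the threshold. FKBP5 passed it without adapted replicate 2 (adjusted p = 0.0356) and after rescaling to an equal sum (0.042), and was at 0.16 without adapted replicate 1 (0.0765). After that rescaling TSC22D3 lost its call (limma, adjusted p = 0.0547). The NR3C1 difference ran from 0.046 to 0.15 with 1 sample left out, without a call, and TSC22D3 lost its call without any one of parental replicates 1 to 3 (adjusted p = 0.102, 0.13 and 0.147) or without adapted replicate 2 (0.106). SGK1, a kinase under glucocorticoid and serum control, fell by 0.80 (adjusted p = 0.00596).

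Enzymes that modify clock proteins or mark them for degradation gave 4 calls up and 4 down of 12 tested, near the 30.7% and 26.2% of all tested rows. GSK3B, which phosphorylates several clock proteins, rose by 0.56 (limma, adjusted p = 6.24e-04). The casein kinases CSNK1D and CSNK1E, which phosphorylate PER proteins, rose by 0.36 (adjusted p = 0.00502) and 0.27 (adjusted p = 0.0108), and FBXW11, a ubiquitin ligase subunit that recognises phosphorylated PER, rose by 0.32 (adjusted p = 0.00298). CSNK1E lost its call without parental replicate 1 (adjusted p = 0.0512). Among those that fell, CSNK1A1 (-0.21, adjusted p = 0.0434) lost its call in 5 of the 6 fits that left out 1 sample, all but that without adapted replicate 2 (adjusted p 0.0599 to 0.128), and SIRT1 (-0.26, adjusted p = 0.0143) without parental replicate 1 (0.0665) or 2 (0.0564). PRKAA1 and PRKAA2, the catalytic subunits of AMPK, differed by -0.33 (adjusted p = 0.00335) and -0.67 (adjusted p = 3.71e-04). Their parental values return to the 6-decimal grid of the table when 0.2 is subtracted on the log2 scale. With 0.2 subtracted, PRKAA1 differed by -0.13 (adjusted p = 0.113) and PRKAA2 by -0.47 (adjusted p = 0.00213). BTRC, FBXW7, HUWE1 and USP7 did not pass the threshold, and USP2 did not pass the filter.

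Among coactivators and corepressors, 2 of the 10 tested rose and 3 fell, near the 56.9% of all tested rows called in either direction. CREBBP, an acetyltransferase, rose by 0.54 (limma, adjusted p = 0.00488) and SFPQ, an RNA-binding partner of PER complexes, by 0.37 (adjusted p = 0.00143). KAT2B, another acetyltransferase, fell by 0.34 (adjusted p = 0.0132), NCOR1, the corepressor recruited by the NR1D receptors, by 0.31 (adjusted p = 0.00944) and SIN3A, a corepressor scaffold, by 0.28 (adjusted p = 0.0059). The KAT2B call was lost without parental replicate 2 (adjusted p = 0.0593) or 3 (0.0538). HDAC3, the deacetylase that acts with NCOR1, differed by -0.098 (adjusted p = 0.188). EP300, KDM5A, WDR5 and NONO did not pass either, and PPARGC1A was near 0.

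As a check of the cell line, 7 epithelial markers summed to between 4022 and 4330 FPKM in each sample, with KRT7 the most abundant over all samples, and EGFR stood at 535 FPKM on average in both groups. The markers in this sum moved apart. KRT7 went from 671 to 1422 FPKM (limma, adjusted p = 2.19e-04), KRT19 from 936 to 556 FPKM (adjusted p = 4.74e-04) and KRT18 from 853 to 579 FPKM (adjusted p = 0.00427), so that KRT19 led in parental cells. KRT8 also fell (904 to 748 FPKM, adjusted p = 0.0477), and EPCAM and CDH1 did not pass the threshold. NKX2-1, the lung lineage factor, was at 31.1 ± 0.251 FPKM (SD, n = 3) in parental and 43.9 ± 7.42 FPKM (SD, n = 3) in adapted cells, and the surfactant gene SFTPC was near 0. The 4 lung lineage markers, led by NAPSA, summed to 134, 133 and 133 FPKM in parental and 79.5, 124 and 106 FPKM in adapted samples. All 3 leukocyte markers together reached at most 0.380 FPKM in a sample. LYZ, the most abundant over all samples, was at 0 in parental replicate 1 and in all 3 adapted samples. CD3E was listed at 0 in every sample, and PTPRC was at 0 in parental samples and at 0.0311 FPKM on average in adapted ones. Of 4 fibroblast markers, DCN and PDGFRB were near 0, while the list summed to 2.997, 3.12 and 3.12 FPKM in parental and 8.55, 8.89 and 8.11 FPKM in adapted samples, most of it COL1A1. COL3A1 was at 0, 0.02 and 0 in parental and 1.37, 0.17 and 0.11 in adapted samples on the log2(FPKM + 1) scale, highest in adapted replicate 1. Of 3 endothelial markers, PECAM1 was at 1.35 FPKM in parental and 0.0634 in adapted cells and CDH5, the most abundant over all samples, at 0.156 and 2.39, with list sums of 1.59, 1.86 and 1.13 against 1.42, 3.47 and 3.01 FPKM. Their part in the clock gene values was not tested.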

How the data were processed

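RNA-sequencing of 3 parental and 3 adapted H1975 samples was analysed. The deposited values, 1 column per sample in 1 table, are on a log2 scale, and no read counts were used. That the unit is log2(FPKM + 1) was inferred from the values. The submitters' processing notes list STAR, Bowtie2 2.1.0, edgeR and hg38 with no role, the authors' methods name DESeq2, and the quantifier and annotation are not given in the sources used here. Without counts, limma 3.58.1 in R 4.3.3 (lmFit, eBayes with an intensity trend, unpaired, two-sided) was fitted to all 12656 rows with a mean of at least 1, and p-values were adjusted over these rows (Benjamini-Hochberg, threshold 0.05). Paralog differences were compared by exact permutation in Python 3.11.15.

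In 147 rows the values of 1 group leave the 6-decimal grid of the linear values, by a constant on the log2 scale. No clock gene is among them, and of the other listed genes 2 are (PRKAA1 and PRKAA2). Values were used as deposited.

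The clock genes, lists and tests were chosen with earlier results of these data known. Some genes first placed on the other lists are not reported here, for a reason unrelated to their values, and enter none of the list counts. All 10 clock genes are named. From each other list, the calls without overlap are given with values, at most 4 per direction, the largest being chosen first. Of the remaining genes, some are given with values and the others by name. TIMELESS, a member of its list from the start, is named beyond this rule, and the overlapping genes and the count over members at the filter in both groups were added after values were seen. For promoters, 30 bases around each E-box or E-prime box are printed in place of whole windows. Alternatives changed the pseudocount, filter, scaling, eBayes options, threshold, block, rows or samples.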

Additional observations from a re-analysis of the deposited data

How the results depend on the processing

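NR1D1, PER1 and NPAS2 kept their direction and call under each alternative that kept them among the tested rows. The log2 difference ranged from -2.22 to -1.85 for NR1D1, from -2.02 to -1.63 for PER1 and from -1.09 to -0.89 for NPAS2. PER2 (-0.53 to -0.31) lost its call at a threshold of 0.01 only (adjusted p = 0.0101). The number of clock genes that rose, 1 as reported, was 2 without a filter (PER3 added), 2 after rescaling to an equal sum with or without the mitochondrial genes (CRY1 added), 0 with a mean of at least 3 and 0 at a threshold of 0.01, and between 0 and 2 with 1 sample left out. The number that fell, 4, was 1 with a mean of at least 3, since 3 of the 4 are then not tested, and 4 in each fit with 1 sample left out.

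With the filter at 3, 4532 rows were called in place of 7202, of fewer tested. With 1 sample left out this count ran from 5763 to 8370, the highest without adapted replicate 1. Of the other listed genes, 10 rose and 19 fell, and with 1 sample left out 7 to 12 rose and 15 to 19 fell.

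Differences near 0 changed sign. ARNTL was -0.032 after quantile normalization and -0.0019 to 0.074 with 1 sample left out, and NR1D2 was 0.0063 after rescaling without mitochondrial genes and -0.12 to 0.047 with 1 sample left out. USP7 was 0.012 and CDKN1A 0.025 after the same rescaling. WDR5 was -0.010 after centring on the median and -0.065 to 0.054 with 1 sample left out, and CDKN1A ran from -0.15 to 0.21. The change in CRY1 minus CRY2 between the groups, -0.14 over all samples, was 0.028 without adapted replicate 3. With a pseudocount of 0.1 the change in PER2 minus PER3 was -1.50 in place of -0.88. NONO passed the threshold after quantile normalization (adjusted p = 0.0388). CSNK1A1 and TSC22D3 lost their calls after rescaling to an equal sum per sample (limma, adjusted p = 0.0643 and 0.0547) and in eBayes without a trend (0.0561 and 0.0647).

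Samples with the same replicate number did not deviate together (r of deviations -0.051, -0.031 and -0.020 across genes), so the numbers were not taken as pairs. With the replicate block, 6761 rows were called, and CSNK1A1 and TSC22D3 lost their calls (adjusted p = 0.0606 and 0.0815). The calls of the clock genes were as reported. The depth is unknown, so no limit of detection can be given for the low genes PER3, RORB or VIPR2.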
